A study of Mus musculus with 18 samples.

Results

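Toll-like receptors (TLRs) were examined in adipose tissue of male wild type C57BL/6 mice (also given as C57BL/6J and, in the study, as C57BL/6NTac) fed for 12 weeks with a high-fat diet (HFD) and aged 16 weeks. The 10 TLR genes chosen by their symbols were Tlr1, Tlr2, Tlr3, Tlr4, Tlr5, Tlr6, Tlr7, Tlr8, Tlr9 and Tlr13, out of 52093 gene symbols measured by RNA-seq. The 18 samples comprised 6 of adipocytes isolated from inguinal white adipose tissue (iWAT), 6 of adipocytes isolated from epididymal white adipose tissue (eWAT) and 6 of whole brown adipose tissue (BAT). White adipocytes were the cells that floated after collagenase digestion, whereas BAT was frozen without digestion, so tissue and preparation cannot be told apart in any comparison with BAT. One label field gives regular chow for all samples, against their titles and the description of tissue collection, and the samples were treated as HFD samples.

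TLRs are receptors of innate immunity that recognize microbial molecules and some molecules released by damaged host cells. Tlr1, Tlr2, Tlr4, Tlr5 and Tlr6 act mainly at the cell surface, where they bind bacterial lipids and proteins, whereas Tlr3, Tlr7, Tlr8, Tlr9 and Tlr13 sense nucleic acids in endosomes. All but Tlr3 signal through the adaptor Myd88 to NF-kappaB, and in obese adipose tissue TLRs have been studied in macrophages as well as in adipocytes.

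All 10 genes had a single row in the files, on the mm9 (NCBIM37) genome build, and each row overlapped the GENCODE vM1 gene of the same symbol over 89.6% to 100% of its span. Tlr1 (chr5:65315923-65324799) and Tlr6 (chr5:65344334-65351287) lay 19534 bases apart on the minus strand of chromosome 5. They shared 454 stretches of 50 bases in their transcripts, 17.4% of those of Tlr1 and 17.8% of those of Tlr6, so the split of reads between these paralogs is uncertain. No other member shared such a stretch with another gene among the protein-coding transcripts of GENCODE vM1, the only ones searched. The transcripts searched for Tlr7 and Tlr4 had 3897 and 4077 bases, against 8122 and 5556 in their rows. Tlr8 (chrX:163680626-163702261) and Tlr7 (chrX:163742861-163768490) were neighbors on the minus strand of the X chromosome, 40599 bases apart. Tlr13 (chrX:103338543-103355832) lay on the plus strand of the same chromosome. The other members were Tlr2 (chr3:83640194-83645689, minus strand), Tlr3 (chr8:46481019-46495963, minus strand), Tlr4 (chr4:66488618-66591318, plus strand), Tlr5 (chr1:184884919-184906175, plus strand) and Tlr9 (chr9:106124929-106129207, plus strand). The Tlr3 row overlapped a predicted gene on the opposite strand, LOC100503309, over 3.66% of its span. That gene had 1 to 7 reads per sample.

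Promoters are shown for the 2 receptors with the largest differences between white and brown tissue, Tlr13 and Tlr8, and for the 2 that were higher in iWAT than in eWAT adipocytes, Tlr3 and Tlr5. The sequences are from RefSeq (GRCm38.p6, a later build than that of the reads), run 5′ to 3′ and hold the 250 bases before the annotated start and the first 10 after it. Capitals mark the PU.1 core GAGGAA in Tlr13 and Tlr8 and the kappaB pattern GGGANNNNCC in Tlr3 and Tlr5, both searched on either strand. PU.1 is the transcription factor that directs myeloid genes, and kappaB sites bind NF-kappaB.
Tlr13 (chrX:106143025-106143284, plus strand): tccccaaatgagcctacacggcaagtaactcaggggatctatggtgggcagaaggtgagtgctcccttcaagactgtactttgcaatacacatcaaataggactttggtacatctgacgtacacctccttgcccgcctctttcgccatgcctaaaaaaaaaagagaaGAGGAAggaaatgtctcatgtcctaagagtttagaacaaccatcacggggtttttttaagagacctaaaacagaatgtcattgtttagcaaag
Tlr8 (chrX:167264320-167264579, minus strand): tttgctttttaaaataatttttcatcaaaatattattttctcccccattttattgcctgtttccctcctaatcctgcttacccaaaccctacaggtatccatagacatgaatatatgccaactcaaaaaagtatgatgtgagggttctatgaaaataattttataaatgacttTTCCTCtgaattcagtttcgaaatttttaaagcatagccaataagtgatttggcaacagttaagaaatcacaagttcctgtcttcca
Tlr3 (chr8:45410371-45410630, minus strand): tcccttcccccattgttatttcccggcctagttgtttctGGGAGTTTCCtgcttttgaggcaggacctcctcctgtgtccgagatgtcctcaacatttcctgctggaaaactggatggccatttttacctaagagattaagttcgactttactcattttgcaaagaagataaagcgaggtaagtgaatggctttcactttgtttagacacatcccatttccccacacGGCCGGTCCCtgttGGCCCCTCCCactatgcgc
Tlr5 (chr1:182954538-182954797, plus strand): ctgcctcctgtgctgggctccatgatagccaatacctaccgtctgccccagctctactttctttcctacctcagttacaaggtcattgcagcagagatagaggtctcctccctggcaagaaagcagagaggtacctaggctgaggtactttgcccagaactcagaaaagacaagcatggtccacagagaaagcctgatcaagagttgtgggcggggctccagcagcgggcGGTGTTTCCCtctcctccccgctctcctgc
The table of promoters held 10 entries for 8 of the members, each searched over 300 bases. The PU.1 core was found in Tlr13 (first base at -83 from the start), in Tlr8 (-77), in Tlr9 (-112 and 13) and in 1 of the 2 entries of Tlr1 (-23). The kappaB pattern was found in Tlr2 (-172 and -8), in Tlr3 (-211, -23 and -9) and in Tlr5 (-20). Neither was found in Tlr6, and no member held both patterns. Of all 32851 promoters of this length, 28.3% held the PU.1 core and 20.7% the kappaB pattern.

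Reads on gene rows numbered 26768529 to 30166441 per sample in iWAT adipocytes and 24655056 to 37438994 in eWAT adipocytes, against 27402247 to 42518483 in BAT. The 10 most abundant rows took 43.6% to 54.3% of the reads in BAT, against 9.94% to 20.5% in the white depots. Adipocyte markers (Adipoq, Plin1, Lep and Cidec) summed to 2605 to 3840 RPKM in iWAT adipocytes and 517 to 1812 in eWAT adipocytes, against 629 to 824 in BAT. Samples 3 and 1 of eWAT adipocytes stood apart, with 517 and 703 RPKM against 1303 to 1812 in the other 4. The 12 macrophage markers, among them Cd68, Csf1r and Mrc1, summed to 507 to 971 RPKM in iWAT adipocytes and 2837 to 4532 in eWAT adipocytes, against 33.8 to 64.8 in BAT. Markers of dendritic, B, T and NK cells, which also express TLRs, summed to at most 5.45 RPKM in any sample for each of these lists. The 6 neutrophil markers summed to at most 9.80 RPKM, with the defining gene Ly6g listed at 0 throughout. The lists differ in length and in the levels of their genes, so their sums do not compare numbers of cells. The 4 endothelial markers summed to 104 to 296 RPKM in iWAT adipocytes and 35.0 to 75.002 in eWAT adipocytes (70.8 to 105 in BAT), and the 4 markers of progenitors and fibroblasts to 462 to 626 and 90.7 to 218 RPKM (25.3 to 40.8 in BAT).

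RPKM is the read count divided by transcript length and library size, so that levels of different genes can be compared within a sample. The order and the shares of the receptors therefore depend on the length used for each row. The summed level of the 10 TLRs was 39.9, 47.4 and 62.1 RPKM (lowest, median and highest of 6 samples) in iWAT adipocytes. It was 135, 158 and 203 RPKM in eWAT adipocytes, and 5.28, 6.30 and 8.02 RPKM in BAT. These ranges did not overlap. The mean level reached 1 RPKM for 9 members in iWAT adipocytes and for 10 in eWAT adipocytes, against for 3 in BAT (Tlr3, Tlr4 and Tlr5). In bulk RNA, fewer cells of a type and less RNA per cell cannot be told apart.

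**Figure D1:**
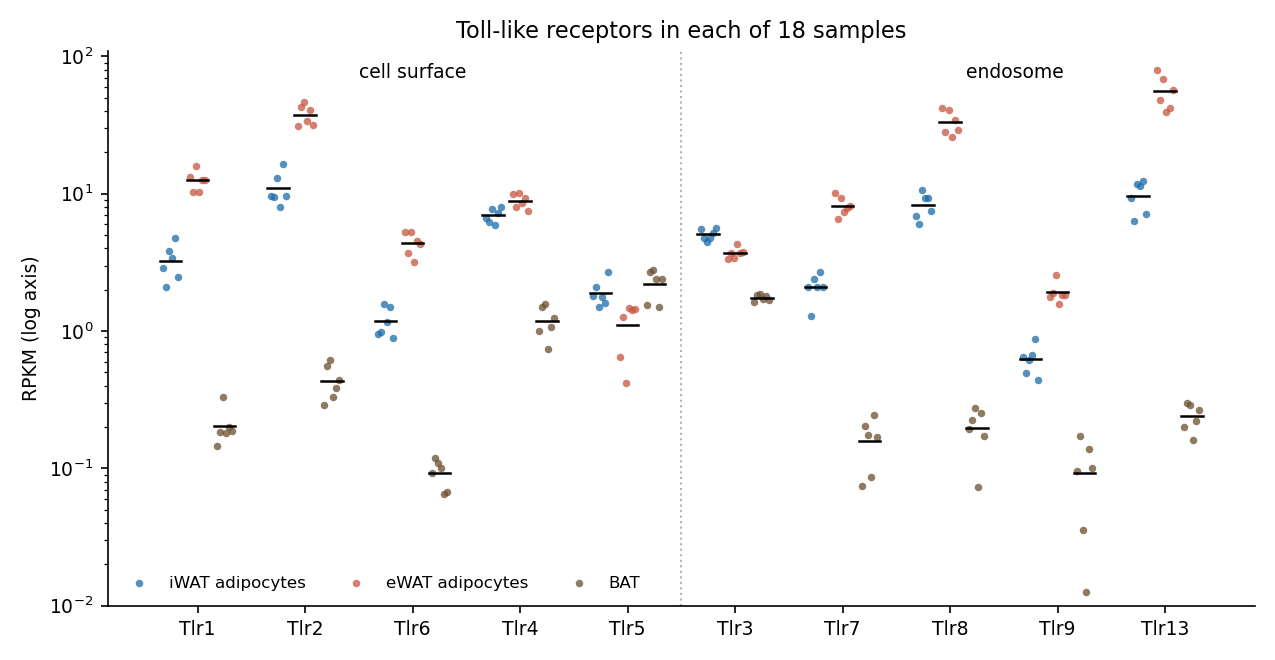
RPKM (log axis) of each TLR in every sample, with 6 samples per tissue as points and their mean as a bar; the dotted line separates receptors of the cell surface from those of endosomes. Most receptors lie highest in eWAT adipocytes and lowest in BAT, whereas Tlr3 is highest in iWAT adipocytes (mean 5.07) and the 3 tissues are closest together for Tlr5 (means 1.91, 1.11 and 2.21).

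The order of the receptors differed between the tissues. In iWAT adipocytes, Tlr2, Tlr13, Tlr8 and Tlr4 led in this order by mean RPKM, and each neighboring pair had overlapping ranges. Tlr4 and the next receptor, Tlr3, did not overlap. Tlr3, Tlr1, Tlr7, Tlr5 and Tlr6 followed with overlapping ranges, and Tlr9 lay below all of them. In eWAT adipocytes, Tlr13, Tlr2 and Tlr8 were the top receptors with overlapping ranges, and the lowest of their values (25.8 RPKM) exceeded the highest of Tlr1 (15.9 RPKM). Tlr1 lay above Tlr4 without overlap, Tlr4 and Tlr7 overlapped, as did Tlr6 and Tlr3, and Tlr9 and Tlr5 closed the order without overlap between them. In BAT, Tlr5 came first, with a range that overlapped that of Tlr3. Tlr3 lay above Tlr4 and Tlr4 above Tlr2 without overlap, and the other receptors overlapped their neighbors.

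As shares of the summed TLR level, Tlr13 made up 26.6% to 40.3% in eWAT adipocytes and 15.3% to 23.3% in iWAT adipocytes. In BAT, Tlr13 held 2.77% to 3.95%. Tlr5 showed the opposite order, with 25.3% to 41.0% in BAT, 2.57% to 5.77% in iWAT adipocytes and 0.207% to 1.08% in eWAT adipocytes. Tlr3 likewise held 23.1% to 30.8% in BAT, against 7.69% to 12.2% in iWAT and 1.69% to 3.19% in eWAT adipocytes. For each of these 3 receptors, the ranges of the 3 tissues did not overlap. Tlr2 had similar mean shares in iWAT (21.8%) and eWAT (22.9%) adipocytes and 6.52% in BAT.

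**Figure D2:**
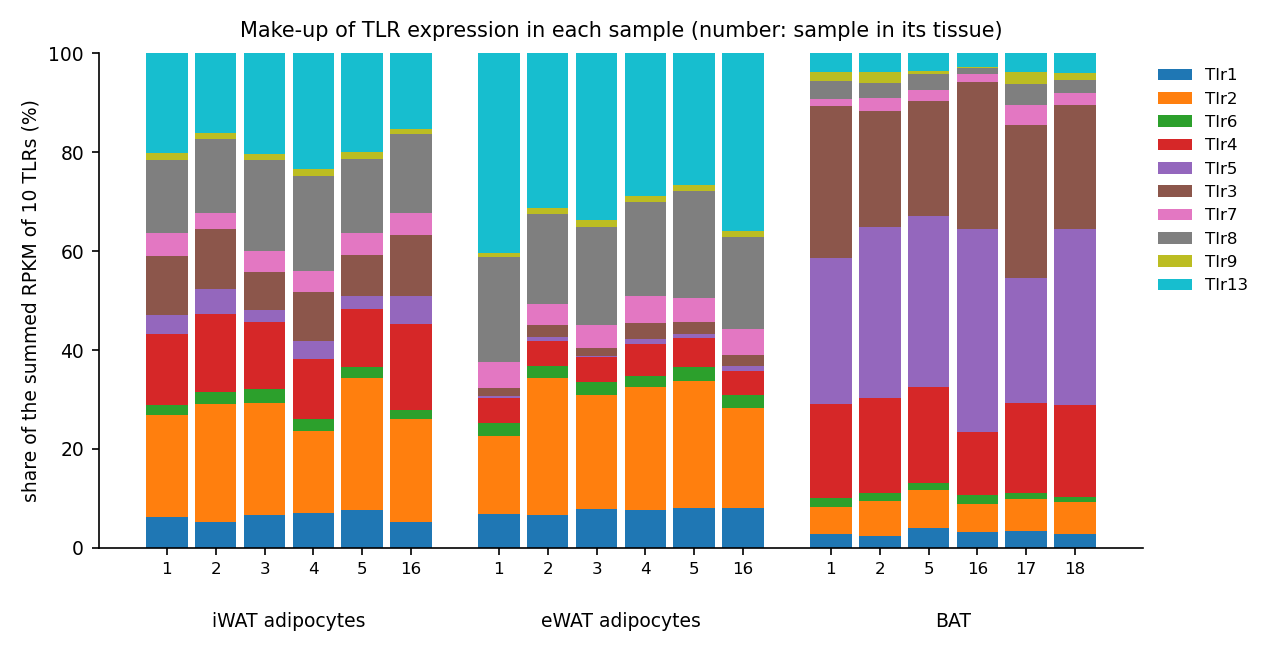
Share (%) of each TLR in the summed RPKM of the 10 TLRs, with 1 bar per sample and samples numbered as in the titles of their tissue. Tlr13, Tlr2 and Tlr8 fill most of each bar in both white depots, whereas Tlr5, Tlr3 and Tlr4 (mean shares 33.5%, 27.2% and 17.9%) fill most of it in BAT.

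Differences were tested with edgeR on the read counts (trimmed mean of M-values [TMM] scaling, adjusted over all symbols tested). Between iWAT and eWAT adipocytes, 10 of 10 TLRs passed an adjusted P of 0.05, 8 of them higher in eWAT and 2 in iWAT adipocytes, where 68.6% of 19623 symbols passed, 34.5% higher in eWAT and 34.1% in iWAT adipocytes. The median log2 fold change of iWAT over eWAT was -1.83 for the TLRs and 0.00 for all symbols. RPKM of the 2 depots did not overlap for 9 of the 10 TLRs, against 44.0% of all symbols. Against BAT, 9 TLRs had higher levels in iWAT adipocytes and Tlr5 was higher in BAT under TMM scaling but not with the total count alone, where 75.3% of 19745 symbols passed, 38.1% higher in iWAT adipocytes and 37.2% in BAT. RPKM did not overlap for 9 TLRs (65.3% of all symbols), the exception being Tlr5. For eWAT adipocytes against BAT, the same 9 TLRs were higher in eWAT adipocytes and Tlr5 in BAT, where 82.5% of 20076 symbols passed, 41.1% and 41.4% in these directions. RPKM did not overlap for all 10 TLRs (68.4% of all symbols). The median log2 fold changes over BAT were 3.09 and 5.04 for the TLRs in iWAT and eWAT adipocytes, and 0.01 and -0.02 for all symbols. Most symbols passed in each comparison, so that a count of TLRs past the threshold says little and the sizes of the differences are given for each receptor. Without eWAT samples 1 and 3, all 10 TLRs passed again in both comparisons with eWAT adipocytes, in the same directions. The 3 comparisons share samples.

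**Figure D3:**
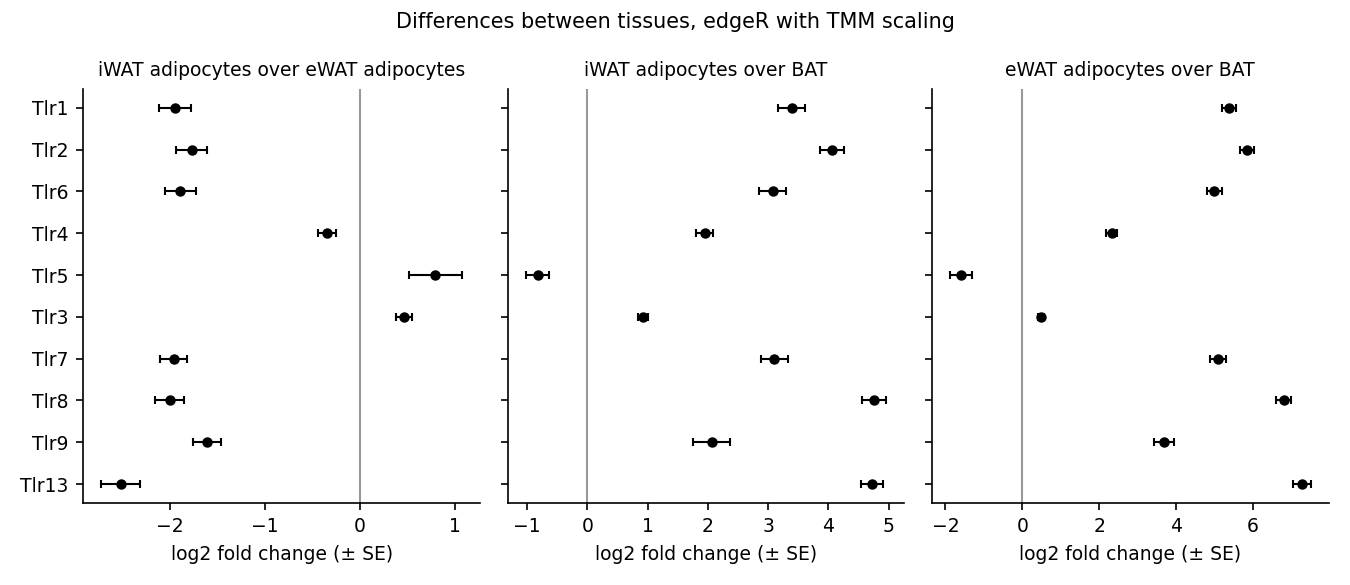
Log2 fold change (± SE) of each TLR in the 3 comparisons of tissues, from edgeR with TMM scaling on 12 samples each; the line marks 0. Tlr3 and Tlr5 lie above 0 in iWAT over eWAT adipocytes, and Tlr5 lies below 0 in both comparisons with BAT, although in iWAT over BAT its sign changed (0.038) when samples were scaled by total count alone.

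The scaling mattered for comparisons with BAT. Scaling by the total count alone shifted the median log2 fold change of all symbols by 0.85 in iWAT adipocytes over BAT and by 0.91 in eWAT adipocytes over BAT. With it, 69.4% of symbols were higher in iWAT adipocytes against 15.5% in BAT, and of the TLRs 9 were higher in iWAT adipocytes and 0 in BAT. For eWAT adipocytes, the split was 64.6% and 20.3% of symbols and 9 and 1 TLRs. Sequencing lanes of BAT were not used for white adipocytes, so lane and tissue cannot be told apart there. The white depots shared their lanes, in unequal numbers of samples.

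Tlr2, which pairs with Tlr1 or Tlr6 to bind bacterial lipopeptides, was the most abundant TLR of the cell surface in white adipocytes. Its level was 8.02, 9.60 and 16.5 RPKM (lowest, median and highest) in iWAT adipocytes and 31.0, 37.1 and 46.8 RPKM in eWAT adipocytes, against 0.292, 0.411 and 0.611 RPKM in BAT. The 3 ranges were well apart. Expression was 3.41-fold higher in eWAT than in iWAT adipocytes (log2 fold change of iWAT over eWAT -1.77 ± 0.16 [SE], adjusted P = 1.3e-06). Over BAT, the log2 fold change was 4.06 ± 0.20 in iWAT adipocytes (adjusted P = 6.9e-11) and 5.85 ± 0.18 in eWAT adipocytes (adjusted P = 3.2e-13).

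Tlr1, the partner of Tlr2 for triacylated lipopeptides, had 2.11, 3.12 and 4.75 RPKM in iWAT adipocytes and 10.3, 12.6 and 15.9 in eWAT adipocytes, against 0.146, 0.186 and 0.329 in BAT, with 13 to 25 reads per BAT sample. Tlr6, the partner for diacylated lipopeptides, had 0.896, 1.07 and 1.59 RPKM in iWAT adipocytes and 3.20, 4.42 and 5.30 in eWAT adipocytes, against 0.0648, 0.0964 and 0.119 in BAT, with 6 to 12 reads per BAT sample. Neither receptor overlapped between tissues. The log2 fold change of iWAT over eWAT was -1.95 ± 0.17 for Tlr1 (adjusted P = 8.3e-07) and -1.89 ± 0.16 for Tlr6 (adjusted P = 7.9e-07), near that of Tlr2. In eWAT adipocytes over BAT it was 5.37 ± 0.18 for Tlr1 (adjusted P = 6.6e-13) and 4.99 ± 0.20 for Tlr6 (adjusted P = 3.6e-12). In iWAT adipocytes over BAT it was 3.39 ± 0.22 for Tlr1 (adjusted P = 1.6e-09) and 3.07 ± 0.22 for Tlr6 (adjusted P = 5.0e-09). Within a sample, Tlr1 was 2.82 times Tlr6 in iWAT and 2.86 times Tlr6 in eWAT adipocytes (medians of the RPKM ratio). The median was 2.31 in BAT, with a range of 1.54 to 3.08 that overlapped both white depots.

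Tlr4, the receptor for lipopolysaccharide, differed less between the white depots than its neighbors at the cell surface. Levels were 5.93, 6.94 and 8.01 RPKM in iWAT adipocytes and 7.51, 8.96 and 10.1 in eWAT adipocytes, against 0.746, 1.16 and 1.56 in BAT. The white depots overlapped, and both lay above BAT. Tlr4 was 1.27-fold higher in eWAT than in iWAT adipocytes (log2 fold change of iWAT over eWAT -0.35 ± 0.10, adjusted P = 0.0054). It was 3.86-fold higher in iWAT adipocytes (adjusted P = 4.3e-09) and 5.01-fold higher in eWAT adipocytes (adjusted P = 5.6e-10) than in BAT. The ratio of Tlr2 to Tlr4 therefore differed by tissue, with medians of 1.49 in iWAT adipocytes and 4.28 in eWAT adipocytes, against 0.366 in BAT and no overlap of the ranges.

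The accessory proteins of Tlr4 moved by different amounts. Cd14, which hands lipopolysaccharide to Tlr4, had a mean of 23.8 ± 7.63 RPKM (SD, n = 6 samples) in iWAT adipocytes and 124 ± 22.9 in eWAT adipocytes, against 1.01 ± 0.179 in BAT. Its log2 fold change of iWAT over eWAT was -2.38 ± 0.19 (adjusted P = 5.4e-07). Ly96 (MD-2), the lipopolysaccharide-binding subunit of the complex, changed by -1.30 ± 0.13 (adjusted P = 2.8e-06), with means of 2.99 ± 0.385, 7.43 ± 1.30 and 1.41 ± 0.264 RPKM in iWAT, eWAT and BAT samples. Lbp, the secreted protein that extracts lipopolysaccharide from bacteria, went the other way and was higher in iWAT adipocytes (30.1 ± 4.62 RPKM) than in eWAT adipocytes (15.6 ± 7.38 RPKM, log2 fold change 0.95 ± 0.30, adjusted P = 0.012).

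Tlr5, the receptor for bacterial flagellin, was the only member with its highest mean RPKM in BAT. Levels were 1.502, 1.79 and 2.67 RPKM in iWAT adipocytes and 0.420, 1.34 and 1.46 in eWAT adipocytes, against 1.49, 2.38 and 2.77 in BAT. BAT overlapped iWAT adipocytes, and eWAT adipocytes lay just below both. In eWAT adipocytes, the 2 lowest values, 0.420 and 0.648 RPKM, were those of samples 3 and 1, which had the lowest sums of adipocyte markers, and the other 4 samples lay between 1.27 and 1.46 RPKM. Tlr5 was 1.73-fold higher in iWAT than in eWAT adipocytes (log2 fold change 0.79 ± 0.28, adjusted P = 0.022). The log2 fold change fell to 0.44 ± 0.16 (adjusted P = 0.034) without eWAT samples 1 and 3. Without sample 16 of iWAT adipocytes, the highest of its group, it was 0.66 (adjusted P = 0.055). With lane as a covariate in edgeR, it was 0.75 ± 0.31, just past the threshold (adjusted P = 0.04997). Tlr5 was 3.03-fold lower in eWAT adipocytes than in BAT (log2 fold change -1.60 ± 0.28, adjusted P = 8.4e-05), and -1.24 ± 0.20 (adjusted P = 4.5e-05) without eWAT samples 1 and 3. In iWAT adipocytes over BAT, the fitted value was -0.83 ± 0.20 (adjusted P = 0.0013) with TMM and 0.038 (adjusted P = 0.85) with the total count alone, and limma on log2(RPKM + 0.1) gave -0.19 (adjusted P = 0.32), so no direction can be stated for this pair.

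Tlr3, the sensor of double-stranded RNA that signals through the adaptor Ticam1 (TRIF), differed less between the tissues than the other endosomal TLRs. Levels were 4.42, 5.00 and 5.67 RPKM in iWAT adipocytes and 3.35, 3.67 and 4.31 in eWAT adipocytes, against 1.62, 1.77 and 1.86 in BAT. The ranges did not overlap. Tlr3 was 1.38-fold higher in iWAT than in eWAT adipocytes (log2 fold change 0.46 ± 0.08, adjusted P = 0.00025). Over BAT, the log2 fold change was 0.92 ± 0.08 in iWAT adipocytes (adjusted P = 7.4e-08) and 0.48 ± 0.09 in eWAT adipocytes (adjusted P = 8.8e-05). Tlr3 was, with Tlr5, 1 of the 2 TLRs higher in iWAT than in eWAT adipocytes.

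Tlr7, an endosomal sensor of single-stranded RNA, had 1.29, 2.09 and 2.70 RPKM in iWAT adipocytes and 6.50, 8.00 and 10.1 in eWAT adipocytes, against 0.0746, 0.173 and 0.243 in BAT. Its neighbor and relative Tlr8 had 6.00, 8.36 and 10.6 RPKM in iWAT adipocytes and 25.8, 31.7 and 41.8 in eWAT adipocytes, against 0.0729, 0.209 and 0.274 in BAT, with 6 to 32 reads per BAT sample. No range overlapped another tissue for either receptor. Their log2 fold changes of iWAT over eWAT were -1.96 ± 0.14 for Tlr7 (adjusted P = 3.3e-07) and -2.0006 ± 0.16 for Tlr8 (adjusted P = 4.2e-07). Against BAT they parted, with 5.09 ± 0.21 for Tlr7 (adjusted P = 6.9e-12) and 6.79 ± 0.21 for Tlr8 (adjusted P = 2.8e-13) in eWAT adipocytes. In iWAT adipocytes over BAT, the values were 3.10 ± 0.22 for Tlr7 (adjusted P = 4.8e-09) and 4.76 ± 0.20 for Tlr8 (adjusted P = 1.0e-11). The ratio of Tlr8 to Tlr7 had medians of 3.996 in iWAT adipocytes and 4.22 in eWAT adipocytes, against 1.07 in BAT. The highest BAT ratio, 2.60, lay below the lowest of the white depots, 3.31. RPKM of Tlr7 rested on a length of 8122 bases, against 3897 in the transcript searched for shared stretches. The lengths of Tlr8 were 3588 and 3431 bases. The size of the ratio depends on the lengths used, whereas the order of the tissues does not.

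Tlr9, the receptor for unmethylated CpG DNA, was the least abundant endosomal TLR of the white depots. Levels were 0.443, 0.634 and 0.878 RPKM in iWAT adipocytes and 1.59, 1.82 and 2.57 in eWAT adipocytes. In BAT, they were 0.0126, 0.0987 and 0.172 RPKM, which rested on 1 to 23 reads per sample, and 2 of the 6 samples did not exceed 3 reads. The tissues did not overlap. The log2 fold change of iWAT over eWAT was -1.60 ± 0.15 (adjusted P = 1.3e-06), and those over BAT were 2.06 ± 0.30 in iWAT adipocytes (adjusted P = 1.5e-05) and 3.69 ± 0.27 in eWAT adipocytes (adjusted P = 4.5e-09).

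Tlr13, which senses bacterial ribosomal RNA in mice, showed the largest differences of all 10 TLRs between the white depots and between eWAT adipocytes and BAT. Levels were 6.38, 10.3 and 12.4 RPKM in iWAT adipocytes and 39.1, 52.4 and 79.2 in eWAT adipocytes, against 0.160, 0.243 and 0.298 in BAT. Every eWAT sample lay above every iWAT sample, and every iWAT sample above every BAT sample. Tlr13 was 5.71-fold higher in eWAT than in iWAT adipocytes (log2 fold change of iWAT over eWAT -2.51 ± 0.20, adjusted P = 5.2e-07). It was 154-fold higher in eWAT adipocytes (adjusted P = 3.7e-13) and 26.4-fold higher in iWAT adipocytes (adjusted P = 7.2e-12) than in BAT. Without eWAT samples 1 and 3, which had the highest sums of macrophage markers, the log2 fold change of iWAT over eWAT was -2.27 ± 0.17 (adjusted P = 1.2e-06).

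Macrophage markers moved with most TLRs. Of the 12 markers, 12 were higher in eWAT than in iWAT adipocytes, against 34.5% of all symbols. Their median log2 fold change of iWAT over eWAT was -2.10. Compared with BAT, 11 markers had higher levels in iWAT adipocytes (median 2.97) and 12 in eWAT adipocytes (median 5.12). The shares of all symbols that passed in these directions were 38.1% and 41.1%. To place the receptors beside the markers, the mean log2 level of the 12 markers was subtracted from the log2 level of each TLR in each sample (TMM-scaled RPKM plus 0.1). On this scale, Tlr1, Tlr2, Tlr6, Tlr7 and Tlr8 differed between iWAT and eWAT adipocytes by -0.02, 0.15, 0.12, 0.01 and -0.06, and the ranges of the 2 depots overlapped for all 5. Tlr9 also overlapped, with a difference of 0.47. With a pseudocount of 1, however, Tlr6, Tlr7 and Tlr9 were higher in iWAT adipocytes without overlap, by 0.58, 0.30 and 1.04, and 7 receptors were apart in place of 4. Tlr3, Tlr4 and Tlr5 were 2.37, 1.58 and 2.74 higher in iWAT adipocytes relative to the markers, without overlap, and these values were 1.52 to 2.84 under other scalings, another pseudocount or with Cd68 alone. Tlr13 was 0.57 lower in iWAT adipocytes relative to the markers, also without overlap, although the ranges met with Cd68 alone (a difference of -0.47).

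**Figure D4:**
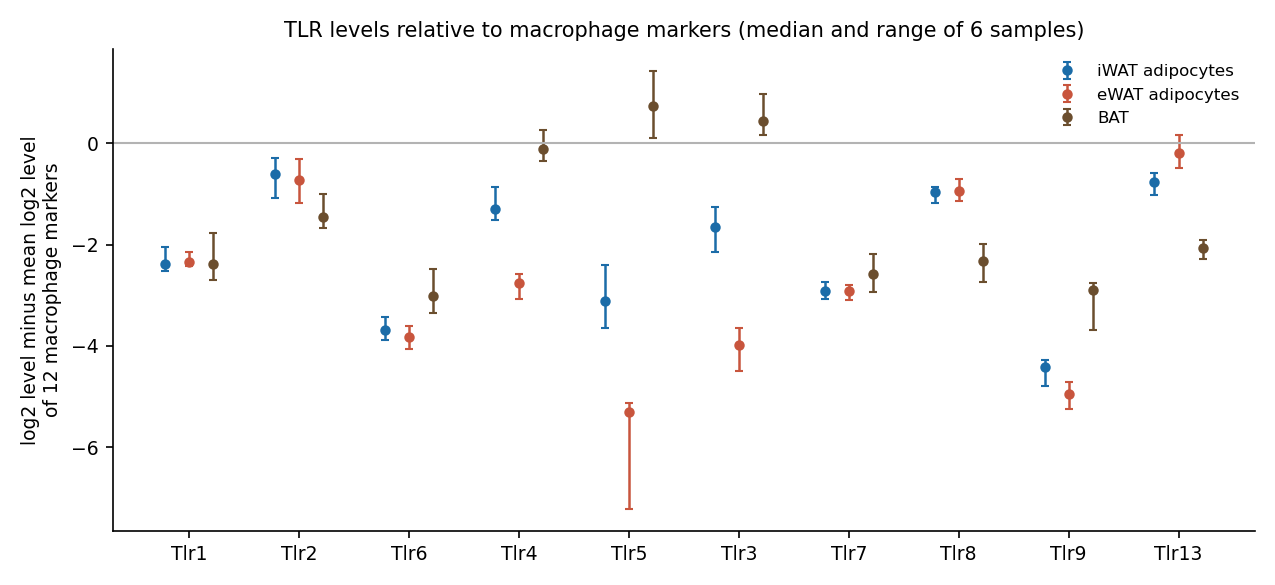
Log2 level of each TLR (TMM-scaled RPKM plus 0.1) minus the mean log2 level of 12 macrophage markers in the same sample, as median (point) and range (bar) of 6 samples per tissue. The white depots overlap for Tlr1, Tlr2, Tlr6, Tlr7 and Tlr8, although Tlr6 and Tlr7 lie apart with a pseudocount of 1, and Tlr3, Tlr4 and Tlr5 lie apart in all 3 tissues.

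In BAT, 5 receptors, Tlr3, Tlr4, Tlr5, Tlr6 and Tlr9, were higher relative to the markers than in either white depot on this scale, without overlap. For Tlr3, Tlr4 and Tlr5, the differences were -2.14, -1.12 and -3.80 for iWAT adipocytes minus BAT and -4.51, -2.70 and -6.55 for eWAT adipocytes minus BAT. For Tlr6 and Tlr9, they were -0.70 and -1.40 for iWAT adipocytes and -0.82 and -1.87 for eWAT adipocytes. Tlr7 overlapped BAT (-0.36 and -0.37). Mean BAT levels of Tlr6 and Tlr9 (0.126 and 0.121 TMM-scaled RPKM) were close to the 0.1 added, which raises them relative to the markers. From edgeR, Tlr6 was 3.07 and 4.99 over BAT in iWAT and eWAT adipocytes, near the marker medians of 2.97 and 5.12. No direction relative to the markers is therefore stated for Tlr6. Tlr9 was 2.06 and 3.69 over BAT, below these medians. Tlr3, Tlr4 and Tlr5 kept this direction with the deposited RPKM, with a pseudocount of 1 and with Cd68 alone. So did Tlr6 and Tlr9, but a larger pseudocount raises their low BAT levels further and cannot test their direction. Tlr8 and Tlr13 were 1.34 and 1.31 higher in iWAT adipocytes than in BAT relative to the 12 markers, but the differences were -0.49 and -0.52 relative to Cd68 alone. Tlr2 turned in the same way, from 0.81 to -1.02. With Cd68 alone, BAT had the higher mean for all 10 receptors in both comparisons, so that the direction of Tlr2, Tlr8 and Tlr13 depended on the markers. The cells that expressed each receptor were not identified, and the part of macrophages in the differences between tissues was not tested.

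The receptors also varied together among samples of the same tissue. After the mean of each tissue was subtracted, all 28 pairs among the 8 members other than Tlr3 and Tlr5 had a positive Pearson's r (median 0.46, range 0.04 to 0.72, over 18 samples). Tlr3 had a positive r with 1 of these 8 and Tlr5 with 2, whereas Tlr3 and Tlr5 correlated with each other at 0.73. With the mean of the macrophage markers, r was 0.86 for Tlr13, 0.85 for Tlr7, 0.77 for Tlr8, 0.68 for Tlr1 and 0.46 to 0.58 for Tlr2, Tlr4, Tlr6 and Tlr9, but -0.47 for Tlr3 and -0.48 for Tlr5. Taken tissue by tissue (6 samples each), r of these 8 was negative only for Tlr2 in eWAT adipocytes (-0.03) and Tlr6 in BAT (-0.19). It was low for Tlr1 in BAT (0.18) and Tlr4 in iWAT adipocytes (0.27). With the adipocyte markers, r was 0.80 for Tlr5, 0.54 for Tlr3 and negative for the other 8. The value for Tlr5 rested on eWAT samples 1 and 3, without which r was 0.33 for Tlr5 and 0.33 for Tlr3 over 16 samples, and -0.20 and -0.33 with the macrophage markers. Within single tissues, r of Tlr5 with the adipocyte markers was 0.75 in iWAT and 0.97 in eWAT adipocytes but -0.02 in BAT. Without these 2 samples, r with the macrophage markers was 0.85 for Tlr13 and 0.86 for Tlr7, and r of Tlr4 with the adipocyte markers turned positive (0.16). These values are descriptions, since the points share libraries and, for Tlr1 and Tlr6, reads.

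On the same scale, the symbols most like each receptor were listed among those with at least 1 RPKM in some tissue. For Tlr13 they were Samhd1 (r = 0.95), which degrades deoxynucleotides in myeloid cells, Pla2g4a (0.94), the cytosolic phospholipase that releases arachidonic acid, and Lat2 (0.94), an adaptor of leukocyte signaling. For Tlr8 they were the lectin receptor Clec4a3 (0.93), Scpep1 (0.93) and Atp6v1a (0.92), a subunit of the proton pump that acidifies endosomes. Tlr7 was most like the inhibitory Fc receptor Fcgr2b (0.91), Slc25a13 (0.87) and Emr1 (0.86), the gene of the macrophage antigen F4/80. Tlr4 was most like Pign (0.91), the lysosomal protease Ctsc (0.90) and ENSMUSG00000082953 (0.89), and Tlr5 like Srpx2 (0.95), Sec16b (0.93) and Ppp1r9a (0.93). For Tlr3 they were Glcci1 (0.90), Aplp2 (0.87) and BC067074 (0.85). Among the receptors of lipopeptides, Tlr6 was most like the dicarboxylate transporter Slc13a3 (0.94), Snx30 (0.89) and Naip6 (0.89). Those of Tlr1 were the row Neurod1/Cerkl (0.91), Itga4 (0.91), an integrin of leukocytes, and 4833419A21Rik (0.90), and those of Tlr2 were the row Atp8a2/Nupl1 (0.89), ENSMUSG00000087640 (0.89) and Fam107b (0.89). Tlr9 was most like 1700084E18Rik (0.87), Pigz (0.87) and Gatm (0.85), and its BAT levels rested on 1 to 23 reads per sample. The lists were not repeated without eWAT samples 1 and 3, on which r of Tlr5 with the adipocyte markers rested.

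Genes that act with or after the TLRs were read from lists of 80 genes. Between the white depots, 75 could be tested, and 47 were higher in eWAT adipocytes, 13 were higher in iWAT adipocytes and 15 did not pass, where 34.5% and 34.1% of all symbols were higher in these depots. The median log2 fold change of iWAT over eWAT was -0.58 for these genes, nearer to 0 than that of the receptors (-1.83). Against BAT, 64 of 75 were higher in iWAT adipocytes and 8 lower (38.1% and 37.2% of all symbols), whereas 65 of 76 were higher in eWAT adipocytes and 10 lower (41.1% and 41.4%). The other TLRs of mice, Tlr11 and Tlr12, had at most 6 and 4 reads in any sample and could not be tested.

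Co-receptors and chaperones had the lowest median of the lists between the white depots (log2 fold change -1.4996). Of these 12 genes, 11 were higher in eWAT than in iWAT adipocytes, against 34.5% of all symbols. Over BAT, 12 of 12 were higher in iWAT and in eWAT adipocytes (medians 2.14 and 3.73), against 38.1% and 41.1% of all symbols. Unc93b1, which carries nucleic acid-sensing TLRs to endosomes, had means of 30.1 ± 5.13 RPKM in iWAT adipocytes and 97.7 ± 16.5 in eWAT adipocytes, against 4.47 ± 0.694 in BAT (log2 fold change of iWAT over eWAT -1.70 ± 0.12, adjusted P = 3.0e-07). Ctss, an endosomal protease that processes TLRs, changed by -2.18 ± 0.17 (adjusted P = 3.8e-07). Cd180, a relative of Tlr4 that restrains it in some cells, was among the genes with the largest differences over BAT, 4.63 ± 0.20 in iWAT adipocytes (adjusted P = 1.3e-11) and 6.56 ± 0.17 in eWAT adipocytes (adjusted P = 1.3e-13).

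The adaptors divided. Myd88, shared by all members but Tlr3, had means of 14.2 ± 2.35 RPKM in iWAT and 14.7 ± 0.510 in eWAT adipocytes (log2 fold change -0.04 ± 0.09, adjusted P = 0.73) and 3.74 ± 0.653 in BAT. Ticam1 was higher in eWAT adipocytes (7.64 ± 0.792 RPKM) than in iWAT adipocytes (4.09 ± 0.500 RPKM, log2 fold change -0.90 ± 0.08, adjusted P = 8.8e-07), the reverse of its receptor Tlr3. Ticam2, which links Tlr4 to Ticam1, and Pik3ap1, an adaptor of leukocytes, were also higher in eWAT adipocytes, by -1.85 ± 0.15 (adjusted P = 5.3e-07) and -1.84 ± 0.12 (adjusted P = 2.1e-07) in iWAT over eWAT. Over BAT, the same 2 adaptors had the largest differences, 6.29 ± 0.18 for Pik3ap1 (adjusted P = 1.9e-13) and 5.40 ± 0.22 for Ticam2 (adjusted P = 5.8e-12) in eWAT adipocytes.

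Among 16 kinases and ubiquitin ligases, 9 were higher in eWAT and 4 in iWAT adipocytes, against 34.5% and 34.1% of all symbols. The other 3 did not pass, and the median was -0.26. Ikbke, a kinase of the interferon branch, stood out with -1.85 ± 0.16 in iWAT over eWAT (adjusted P = 8.0e-07) and 4.10 ± 0.22 in eWAT adipocytes over BAT (adjusted P = 9.5e-11). Of 9 transcription factors, 7 were higher in eWAT adipocytes, against 34.5% of all symbols. They were led by Rel (-1.69 ± 0.22, adjusted P = 1.9e-05) and Irf5 (-1.67 ± 0.14, adjusted P = 5.4e-07). Irf7, the factor that drives type I interferon genes downstream of Tlr7 and Tlr9, was the 1 factor higher in iWAT adipocytes (5.03 ± 0.871 against 3.08 ± 0.724 RPKM, log2 fold change 0.71 ± 0.15, adjusted P = 0.00075).

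Of 11 inhibitors, 6 were higher in eWAT adipocytes and 3 in iWAT adipocytes, against 34.5% and 34.1% of all symbols. Dok3, which restrains signaling in myeloid cells, was lower in iWAT than in eWAT adipocytes (-2.11 ± 0.22, adjusted P = 3.8e-06), whereas Sigirr, a receptor that blocks Tlr and interleukin 1 signaling, was higher in iWAT adipocytes (1.72 ± 0.30, adjusted P = 0.00024). Irak3, an inhibitory kinase found mainly in macrophages, differed little, with 4.10 ± 0.367 RPKM in iWAT adipocytes, 4.68 ± 0.376 in eWAT adipocytes (log2 fold change -0.18 ± 0.07, adjusted P = 0.030) and 1.70 ± 0.224 in BAT. Tnfaip3 (A20), a feedback inhibitor of NF-kappaB, had the largest difference over BAT, 5.69 ± 0.20 in iWAT adipocytes (adjusted P = 2.4e-12) and 6.80 ± 0.17 in eWAT adipocytes (adjusted P = 8.3e-14).

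Of 16 response genes, which TLR signaling is known to induce, 15 could be tested between the white depots. Of these, 9 were higher in eWAT and 2 in iWAT adipocytes (median -0.86), against 34.5% and 34.1% of all symbols. Il1b had 4.52 ± 2.30 RPKM in iWAT adipocytes and 29.6 ± 12.0 in eWAT adipocytes (log2 fold change -2.70 ± 0.32, adjusted P = 9.7e-06), against 0.0970 ± 0.0460 in BAT. Tnf had 44.2 ± 17.3 RPKM in iWAT adipocytes, 120 ± 61.4 in eWAT adipocytes (-1.43 ± 0.32, adjusted P = 0.0014) and 0.118 ± 0.0730 in BAT. Nos2, the inducible nitric oxide synthase, went the other way between the white depots (2.21 ± 0.28, adjusted P = 1.6e-05). Il6 and Il10 had at most 1 read in any BAT sample, against 372 to 1941 reads of Il6 and 469 to 1503 reads of Il10 in iWAT adipocytes, and no fold is given for them. Cxcl2, a chemokine that attracts neutrophils, was 10.68 ± 0.35 higher on the log2 scale in eWAT adipocytes than in BAT (adjusted P = 6.5e-13). The white samples had been digested with collagenase and BAT had not, so the effect of digestion on these genes and the difference between tissues cannot be told apart.

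Host-derived ligands are molecules of damaged cells and matrix proposed to act on Tlr2 or Tlr4. Of 7 tested between the white depots, 2 were higher in each depot, and the median was 0.11. Of all symbols, 34.1% were higher in iWAT and 34.5% in eWAT adipocytes. Fibronectin (Fn1) was -1.24 ± 0.14 in iWAT over eWAT adipocytes (adjusted P = 7.7e-06) and Vcan, the proteoglycan versican, -0.85 ± 0.17 (adjusted P = 0.00065). Over BAT, 6 of 7 were higher in iWAT and in eWAT adipocytes, against 38.1% and 41.1% of all symbols.

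**Figure D5:**
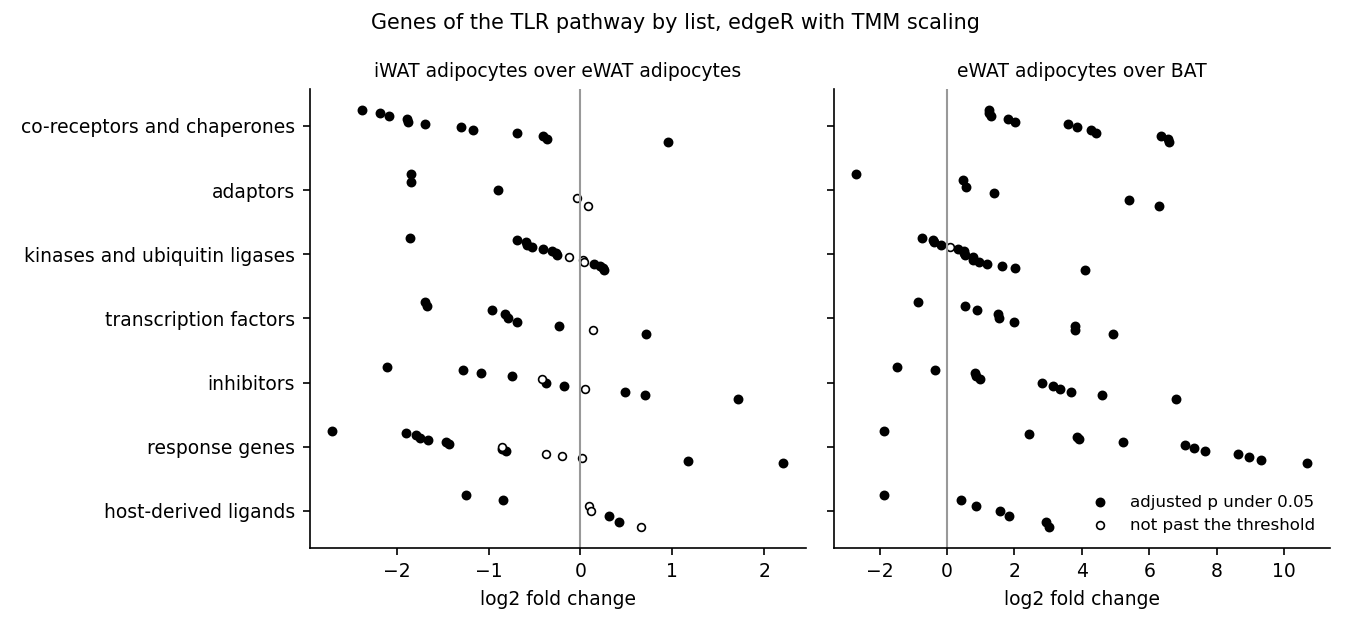
Log2 fold change of each tested gene of the TLR pathway lists in iWAT over eWAT adipocytes (left) and in eWAT adipocytes over BAT (right), from edgeR with TMM scaling; filled points passed an adjusted P of 0.05, open points did not, and genes with at most 3 reads in every sample of a tissue are left out. Co-receptors and chaperones lie left of 0 in 11 of 12 cases between the white depots, whereas kinases and ubiquitin ligases cluster near 0 (median -0.26).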

How the data were processed

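Total RNA of adipocytes isolated from iWAT and eWAT and of whole BAT of HFD mice was made into NEBNext Ultra libraries by the authors and mapped to mm9 (NCBIM37). The submitters' processing notes name cutadapt 1.16 and HISAT2 2.1.0, and the counting program and annotation are not given in the sources used here. For each row, the authors deposited the read count, a whole number that was not normalized, and the RPKM derived from it. In BAT, the counts of all rows summed to more than the library total that the RPKM imply; the cause was not tested.

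A symbol with several rows was represented by the row whose RPKM, averaged over 18 samples, was highest. Counts of each pair of tissues were tested with edgeR 4.0.16 in R 4.3.3 (quasi-likelihood F-test, TMM, two-sided, each comparison on its own 12 samples). Symbols with a mean count of at least 10 were tested, Benjamini-Hochberg adjustment covered all of them, and the threshold was 0.05. The SE was derived from the F statistic. Named pathway genes are, in each list and comparison, at most the 2 called genes of largest change, plus Cd14, Ly96, Myd88, Ticam1, Unc93b1, Irak3, Irf7, Tnf and Il1b, and other genes of the text are the most highly correlated with a receptor among symbols reaching a mean of 1 RPKM in some tissue. The members and lists were chosen with earlier results of these data known.

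Alternatives were DESeq2 1.42.0, limma 3.58.1 on log2(RPKM + 0.1) or log2(RPKM + 1), the total count without TMM, no filter on low counts, counts summed over the rows of a symbol, all 18 samples in a single fit, lane as a covariate, the sample number as a block, a log2 fold change over 1, each sample left out in turn and, chosen after seeing the data, eWAT samples 1 and 3 left out. On counts simulated from the iWAT adipocyte samples (19377 genes), edgeR recovered 87 of 89 genes changed 4-fold and 88 of 104 changed 2-fold, and 5.41% of calls were false. From eWAT adipocytes (19672 genes) it recovered 104 of 105 and 68 of 85 (2.82% false), and from BAT (19243 genes) 89 of 90 and 91 of 104 (4.26% false). In each simulation both groups came from the same tissue and few genes were changed, whereas most symbols passed between the real tissues. The simulations therefore do not measure errors from scaling between BAT and white adipocytes. A note of the study gives 6 per group without saying that each sample is 1 mouse, and the labels number the samples only, so P values measure the spread between these samples. Duplication by PCR is not covered by the read counts.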

Additional observations from a re-analysis of the deposited data

Results flagged for a closer look

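Among 30 groups of 6 samples (10 receptors in 3 tissues), the highest value stood far from the others in 2, where chance gives about 1.5. Tlr1 in BAT sample 5 was 0.329 RPKM (25 reads), against 0.146 to 0.199 RPKM in the other 5 BAT samples. Tlr9 in sample 3 of eWAT adipocytes was 2.57 RPKM (265 reads), against 1.59 to 1.91 RPKM in the other 5.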

How the results depend on the processing

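Of the 10 TLRs, 10 passed in each comparison under every alternative, except that Tlr5 was lost in iWAT against eWAT adipocytes without iWAT sample 16 and in iWAT adipocytes against BAT with the total count alone or limma, and that 7, 8 and 9 passed with a log2 fold change over 1. With the sample number as a replicate block, 10 passed in all 3 comparisons, and 60, 66 and 74 pathway genes. BAT shared only 4 numbers with each white depot, so the blocked fits against BAT rested on 4 pairs. The labels do not state what the numbers mean, and same-numbered samples did not deviate together (r from -0.22 to 0.34 between the white depots). With BAT, r was -0.13 to 0.10 for iWAT and -0.03 to 0.06 for eWAT adipocytes. Leaving out each sample in turn gave 1 to 2 TLRs higher in iWAT than in eWAT adipocytes, the lower count being without iWAT sample 16, where Tlr5 had an adjusted P of 0.055. In iWAT adipocytes over BAT, the log2 fold change of Tlr5 reversed to 0.038 with the total count alone and was -0.19 and -0.14 with limma (pseudocounts of 0.1 and 1), so 0 TLRs were then higher in BAT. With a log2 fold change over 1, 0 TLRs were higher in iWAT than in eWAT adipocytes and 0 in BAT than in iWAT adipocytes. Pathway genes called then numbered 27 between the white depots (3 higher in iWAT and 24 in eWAT adipocytes), 42 in iWAT adipocytes against BAT (40 and 2) and 4 higher in BAT than in eWAT adipocytes. With the total count alone, 7 pathway genes were higher in iWAT than in eWAT adipocytes, against 29.6% of all symbols. In BAT, 2 and 4 were higher than in iWAT and eWAT adipocytes, against 15.5% and 20.3% of all symbols. With limma at pseudocounts of 0.1 and 1, 1 and 2 were higher in BAT than in iWAT adipocytes, and 5 and 5 than in eWAT adipocytes. Without eWAT samples 1 and 3, 57 pathway genes passed between the white depots and 74 in eWAT adipocytes against BAT. Shares of all symbols were read only for the main fit and the total count alone. The other counts given here have no such share beside them and cannot be compared with all symbols. The median absolute log2 fold change of all symbols was 0.47, 0.69 and 0.97 in the 3 comparisons of the main fit, which bears on counts with a log2 fold change over 1. In BAT, 7 members rested on fewer than 50 reads in some samples, which limits the precision of their folds.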
